A study of Mus musculus with 6 samples.

Results

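The genes of MHC class II presentation are described here in mouse pre-B cells transformed by BCR-ABL1, from 6 Affymetrix arrays. The 9 genes were chosen by name, out of 19938 genes with a probe set of a single symbol: the transcription genes Ciita and Rfx5, the invariant chain gene Cd74, the class II chain genes H2-Aa, H2-Ab1 and H2-Eb1, and H2-DMa, H2-Oa and H2-Ob, which govern peptide exchange. Each is measured by 1 probe set, and 8 of the 9 passed the filter on dim genes; H2-Aa did not. Cd74 was 1.21-fold higher in the cells given Cre and was the 1 gene of the 8 to pass the test, where 7.62% of all genes tested passed. Cd74 passed in 9 of 15 alternative settings. Ciita and Rfx5 had positive differences that did not pass, and the class II chain and peptide exchange genes differed by less than Cd74, none past the test.

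All cells came from C57BL/6 mice, carried floxed alleles of the phosphatase gene Inpp5d (Inpp5d fl/fl), and had been turned into a model of acute lymphoblastic leukaemia by the BCR-ABL1 kinase. Cells on 3 arrays had been transduced with PMIP-CRE-ERT2, a Cre recombinase that tamoxifen activates (CRE-labelled arrays), and cells on 3 arrays with PMIP-ERT2, which holds the tamoxifen-binding domain without Cre (ERT arrays). Both groups were given 4OH-Tamoxifen at 0.5 µM, and RNA of puromycin-resistant cells was taken after 2 days. The labels name neither separate cultures nor clones, so the p-values here cover spread among samples that could be technical repeats; Cre itself and loss of Inpp5d cannot be told apart, because no Cre arm without floxed alleles is in the comparison. Bulk RNA also cannot tell a change in the share of cells that carry a transcript from a change per cell.

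Class II molecules are pairs of an alpha and a beta chain that carry peptides from the endosome to the surface of B cells, dendritic cells and macrophages for CD4 T cells. In the endoplasmic reticulum the invariant chain, the product of Cd74, fills the peptide groove and steers the pair to endosomes, where H2-DM removes the last invariant chain fragment and H2-DO, found mainly in B cells, restrains H2-DM. CIITA is the inducible co-activator of these genes; it does not bind DNA but docks on a complex of RFX proteins, CREB and NF-Y that sits on the X and Y boxes upstream of class II genes. In the B lineage, class II rises as cells mature, and pre-B cells are known for little of it.

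The promoter stretches below are shown because they hold letters of the X and Y boxes, the elements on which RFX and NF-Y are known to sit. RefSeq promoter windows of build GRCm38.p6 were found for 6 of the 9 genes (7 windows, as H2-DMa has 2 annotated starts); Cd74, Ciita and H2-Ab1 were not matched. The 250 bases before the start were searched on both strands for GNAAC, the core of the X box, followed after 20 to 32 bases by ATTGG, the core of the Y box. The motifs do not overlap, and their letters and the spacing were set after these promoters had been read. The pair was found on the gene's own strand in 4 of the 6 genes, H2-Aa, H2-Eb1, H2-Oa and H2-Ob, with 25 to 28 bases between the cores. It was found in 1.87% of all 32851 windows on either strand, and in 0.944% on the gene's own strand. Capitals mark the cores, and each stretch is written 5′ to 3′ on the strand of its gene.
H2-Aa, chr17:34287861-34287916, minus strand, X core 81 bases before the start: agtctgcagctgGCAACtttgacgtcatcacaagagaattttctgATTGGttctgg
H2-Eb1, chr17:34305764-34305818, plus strand, X core 91 bases before the start: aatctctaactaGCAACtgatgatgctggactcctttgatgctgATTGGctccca
H2-Oa, chr17:34092291-34092346, plus strand, X core 76 bases before the start: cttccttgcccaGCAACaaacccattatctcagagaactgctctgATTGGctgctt
H2-Ob, chr17:34238806-34238858, plus strand, X core 87 bases before the start: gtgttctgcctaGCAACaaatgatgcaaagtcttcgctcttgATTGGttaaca

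The windows of H2-DMa and Rfx5 did not hold the pair in these letters. Of 3 other class II genes with a window, 2 held it, H2-Eb2 and H2-DMb1, with 27 and 28 bases between the cores, and H2-DMb2 did not. Of 15 class I presentation genes with a window, 1 held it, on the opposite strand. A match describes letters and does not show binding.

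Some facts of the series bear on every value. The median log2 value over all probe sets was 8.19 to 8.23 in the ERT arrays and 8.24 to 8.37 in the CRE-labelled arrays. Inpp5d did not fall in the CRE-labelled arrays (13.35 ± 0.013 against 13.19 ± 0.020, SD, n = 3 each; limma adjusted p = 0.0545), and no source used here says whether its probe set lies in the deleted part; the groups are therefore named by their labels. Of 14953 genes tested, 1140 (7.62%) passed at a limma adjusted p under 0.05, 523 higher (3.5%) and 617 lower (4.13%). Centring each array on its median moved the median difference of all genes from 0.026 to -0.077 on the log2 scale, and then 7.38% of the genes called were higher (223 against 2797 lower), compared with 45.9% as deposited. The CRE-labelled array 3 correlated more with ERT array 3 (r = 0.9967 across probe sets) than with the CRE-labelled arrays 1 and 2 (0.9938 and 0.995).

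The cells had the marker profile of their label. All 13 pre-B markers on the array passed the filter, among them Igll1 and Vpreb1, which encode the surrogate light chain, and Cd79a and Pax5. The mean log2 value over these 13 genes was 12.26 to 12.31 in the ERT arrays and 12.23 to 12.30 in the CRE-labelled arrays. Within the list Dntt, which encodes terminal transferase, rose by 0.33 (limma adjusted p = 0.0176), the recombinase gene Rag2 fell by 0.50 on the log2 scale (0.0249), and 11 did not pass. For this list and the next, the shares over all genes tested were 3.5% called higher and 4.13% lower. Of 9 markers of mature B cells on the array, 5 passed the filter. The co-stimulatory gene Cd80 rose by 0.55 (limma adjusted p = 0.00577), the inhibitory receptor gene Cd22 fell by 0.51 (0.00448), the chemokine receptor gene Cxcr5 fell by 0.29 (0.0487), and Cd40 (0.19, 0.0699) and Ccr7 (0.053, 0.387) did not pass. Ms4a1 (encoding CD20), Cr2, Fcer2a and Cd86 were below the filter. Cd80 and Cd22 passed in all 15 alternative settings, Dntt in 11, Rag2 in 10 and Cxcr5 in 8. Dntt, Rag2 and Cxcr5 each lost the call without ERT array 1 (0.35, -0.48 and -0.26, adjusted p = 0.0771, 0.114 and 0.179), ERT array 2 or the CRE-labelled array 1, Rag2 and Cxcr5 also without ERT array 3, and Cxcr5 without the CRE-labelled array 2. The part of these marker differences in the rise of Cd74 was not tested.

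**Figure D1:**
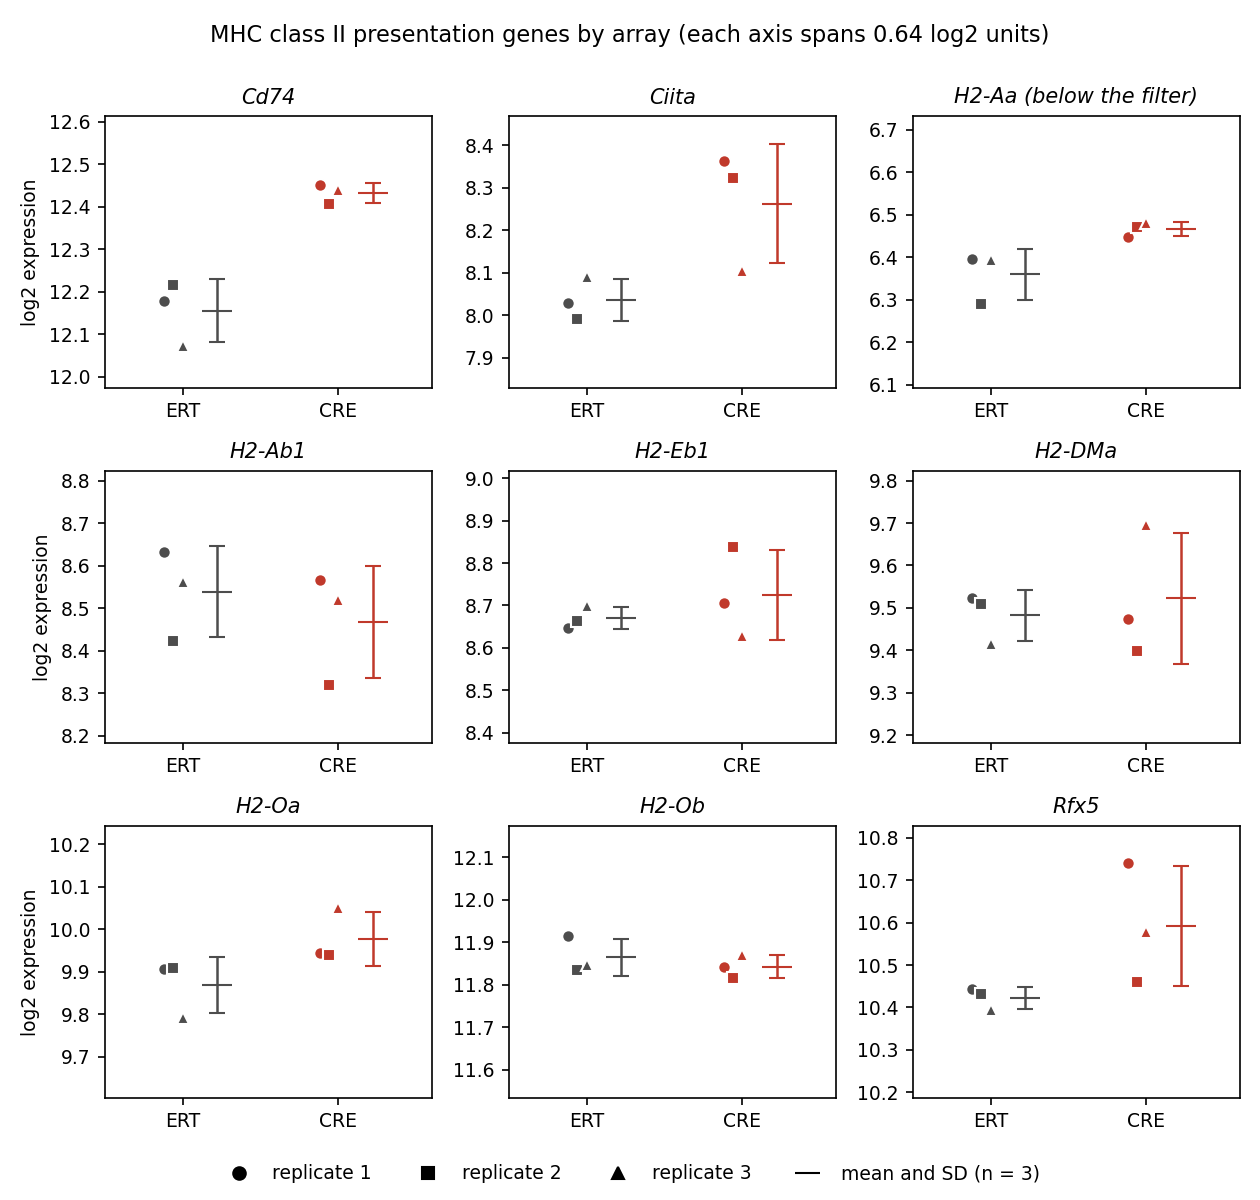
Log2 expression of the 9 class II presentation genes on each array (vertical axis, 0.64 log2 units in every panel), by group, with symbols for the replicate number and bars for the mean and SD (n = 3). The groups are apart for Cd74, from 12.07 to 12.22 in ERT and from 12.41 to 12.45 in CRE, while those of H2-Ab1, H2-Eb1, H2-DMa and H2-Ob overlap.

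Cd74 rose in the CRE-labelled arrays. Its log2 values were 12.18, 12.22 and 12.07 in ERT arrays 1, 2 and 3, and 12.45, 12.41 and 12.44 in the CRE-labelled arrays 1, 2 and 3. Every array labelled CRE lay above every ERT array, and the 3 values with Cre lay closer together (SD 0.024) than those of the controls (SD 0.075). The log2 difference was 0.28 ± 0.051 (SE; 95% interval 0.16 to 0.39; limma adjusted p = 0.0239). The interval stayed below a 2-fold change, which is 1 on this scale. Among the alternative settings, Cd74 lost its call with arrays centred on their medians (0.17, adjusted p = 0.0918) and without ERT array 1 (0.29, 0.104), 2 (0.31, 0.0563) or 3 (0.24, 0.0604) or the CRE-labelled array 1 (0.27, 0.0887); it kept the same sign in all 15 alternative settings and passed in 9. The sixth loss was with the replicate number as a block, whose value is given among the processing alternatives. Changing the filter, averaging probe sets, the trend and robust settings and the block leave the difference of Cd74 at 0.28. Its sign could not change in these settings.

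Ciita, which encodes the co-activator, had a positive difference that did not pass. Its log2 values were 8.03, 7.99 and 8.09 in the ERT arrays and 8.36, 8.32 and 8.10 in the CRE-labelled arrays. The first and second arrays with Cre stood clear of the controls, whereas the third lay just above the highest of them. The difference was 0.23 ± 0.072 (SE), with a 95% interval from 0.062 to 0.39 (limma adjusted p = 0.0791). Without the CRE-labelled array 3, Ciita passed, with a difference of 0.31 (adjusted p = 0.0185), and it also passed with arrays weighted by their quality (0.25, adjusted p = 0.0229). In these 2 settings more of all genes tested passed as well, 20.3% and 26.7%, against 7.62% as reported. The difference of Ciita was 0.13 after loess between arrays and 0.12 after quantile normalization.

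Rfx5, which encodes a DNA-binding subunit of the RFX complex, had log2 values of 10.44, 10.43 and 10.39 in the ERT arrays and 10.74, 10.46 and 10.58 in the CRE-labelled arrays. The controls were tightly grouped, and the arrays with Cre lay above them but spread more widely (SD 0.14 against 0.026). The difference of 0.17 ± 0.070 (SE) did not pass (95% interval 0.0083 to 0.33, limma adjusted p = 0.135). It passed with array weights (0.22, adjusted p = 0.0319), where 26.7% of all genes tested passed, and was 0.067 with centred arrays.

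The class II chain genes did not follow a common direction. H2-Aa, the alpha chain of the I-A molecule, had log2 values of 6.39, 6.29 and 6.39 in the ERT arrays and 6.45, 6.47 and 6.48 in the CRE-labelled arrays. All of these lay under the filter at 7.35, near the dim end of the array, so H2-Aa was not tested with the others; its groups did not overlap, with means of 6.47 ± 0.017 and 6.36 ± 0.060 (SD, n = 3). With no filter on dim genes its difference of 0.11 did not pass (limma adjusted p = 0.208).

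H2-Ab1, the beta chain of I-A, had log2 values of 8.63, 8.42 and 8.56 in the ERT arrays and 8.57, 8.32 and 8.52 in the CRE-labelled arrays. The groups overlapped, and the second array was the lowest of each. The difference was -0.071 ± 0.079 (SE), with a 95% interval from -0.25 to 0.11 (limma adjusted p = 0.533); it was -0.17 with centred arrays and -0.16 after quantile normalization. H2-Eb1, the beta chain of the I-E molecule, had 8.65, 8.66 and 8.70 in the ERT arrays and 8.71, 8.84 and 8.63 in the CRE-labelled arrays. The groups overlapped again, with the CRE-labelled array 2 the highest and CRE 3 the lowest of all 6. The difference of H2-Eb1 was 0.054 ± 0.060 (95% interval -0.083 to 0.19, limma adjusted p = 0.530) and changed sign after quantile normalization, centring and loess. C57BL/6 mice lack a working gene for the I-E alpha chain, H2-Ea, and its probe set was below the filter, at 6.66 in the CRE-labelled arrays and 6.74 in the ERT arrays on average.

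Whether Cd74 and the chains it binds differed in their change was tested on 1 value per array, the log2 value of Cd74 less the mean of H2-Aa, H2-Ab1 and H2-Eb1. This value was higher by 0.25 in the CRE-labelled arrays and did not overlap between the groups. The exact permutation test, two-sided, gave p = 0.1, the smallest that 3 arrays against 3 allow, so this test could not have passed 0.05 whatever the values. Of these chains, H2-Aa lay below the filter on dim genes. Cd74 is also brighter than the chains. Genes as bright as Cd74 had a median difference of -0.0090, and genes as bright as H2-Ab1 and H2-Eb1 had 0.088. The value of 0.25 was 0.33 after quantile normalization and 0.34 after loess.

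The genes of peptide exchange had small differences. H2-DMa, the alpha chain of H2-DM, had log2 values of 9.52, 9.51 and 9.41 in the ERT arrays and 9.47, 9.40 and 9.70 in the CRE-labelled arrays. The CRE-labelled array 3 was the highest and CRE 2 the lowest, so the groups overlapped. The difference was 0.040 ± 0.078 (SE; 95% interval -0.14 to 0.22, limma adjusted p = 0.731) and turned negative with centred arrays. The partner genes H2-DMb1 and H2-DMb2 share a probe set and are not analysed here.

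H2-DO is a pair of H2-Oa and H2-Ob. H2-Oa, the alpha chain, had log2 values of 9.91, 9.91 and 9.79 in the ERT arrays and 9.94, 9.94 and 10.05 in the CRE-labelled arrays. The arrays with Cre were all above the controls by a small margin, and the difference of 0.11 ± 0.055 (SE; 95% interval -0.016 to 0.23) did not pass (limma adjusted p = 0.191). It was 0.0065 with centred arrays and 0.070 without ERT array 3. H2-Ob, the beta chain, had log2 values of 11.91, 11.83 and 11.85 in the ERT arrays and 11.84, 11.82 and 11.87 in the CRE-labelled arrays. Its groups overlapped, and its difference of -0.022 ± 0.045 (SE) did not pass (95% interval -0.13 to 0.082, limma adjusted p = 0.742) and was -0.12 with centred arrays and slightly positive after loess.

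**Figure D2:**
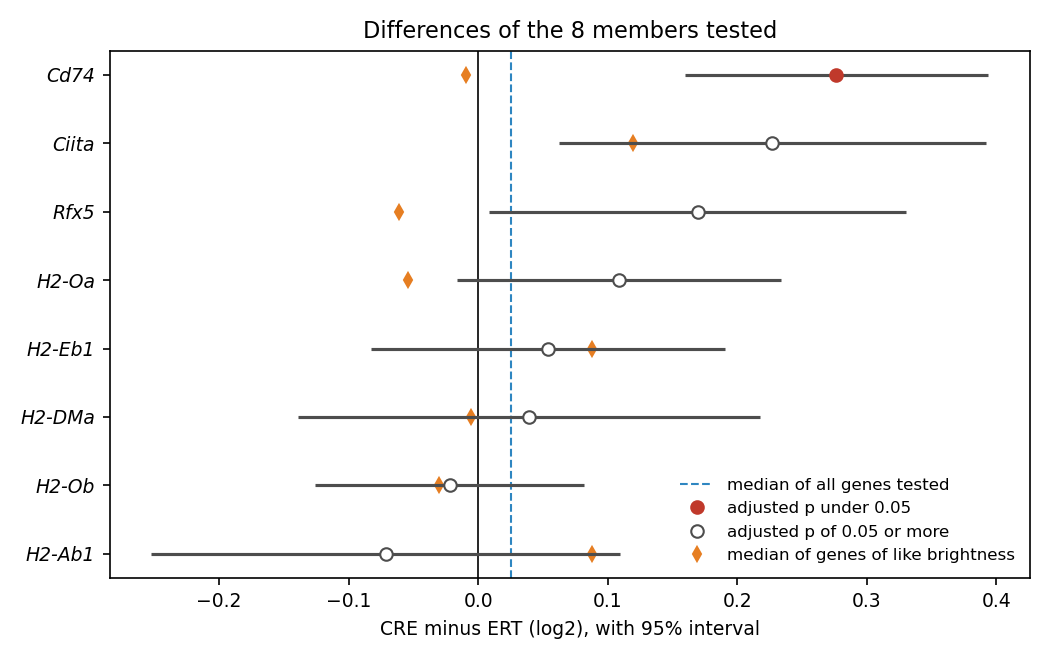
Difference between the CRE-labelled arrays and the ERT arrays on the log2 scale (horizontal axis) with its 95% interval for each of the 8 genes tested, ordered by size; diamonds give the median of genes in the same of 10 bins of brightness and the dashed line that of all genes tested, 0.026. Cd74, at 0.28, is the filled point that passed, and the intervals of H2-Ab1, H2-Eb1, H2-DMa, H2-Oa and H2-Ob cross 0.

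As a group, 1 of the 8 genes tested was higher, 0 were lower and 7 did not pass, against 7.62% of all genes tested that passed in either direction. At an unadjusted p under 0.05 limma gave 3 higher (Cd74, Ciita and Rfx5) and 0 lower, against 33.4% of all genes tested in either direction, 19% higher and 14.4% lower. The median difference of the 8 was 0.081, against 0.026 over all genes, and 6 of the 8 were positive, against 56.6% of all genes. The groups did not overlap, with CRE above, for 4 of the 8 (Cd74, Ciita, Rfx5 and H2-Oa), against 20.7% of all genes tested (38.5% in either direction), and CRE lay wholly below for 0 of the 8 (17.7% of all genes). Of the 4 genes with the promoter pair printed above, 3 were tested and none passed; their differences were 0.054 for H2-Eb1, 0.11 for H2-Oa and -0.022 for H2-Ob.

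The difference between the groups varied with brightness over the whole array, so each gene was also set beside the 1495 or 1496 genes in its bin when all genes tested were cut into 10 bins by mean log2 value. For Ciita, in bin 3 from the dim end, the median difference of such genes was 0.12, and 33.7% of them had CRE wholly above ERT. Their median deviation was highest in the CRE-labelled array 2 (0.11), 0.065 in CRE 1 and near 0 in CRE 3 (-0.0089). The value of Ciita was also nearest to the controls in CRE 3, but was highest in CRE 1 (8.36, with 8.32 in CRE 2). The part of brightness in the difference of Ciita was not tested. For Cd74, in the brightest bin, the median was -0.0090, and 17.4% had CRE wholly above. For Rfx5 and H2-Oa the medians were -0.061 and -0.054, below 0, and for H2-Ab1 and H2-Eb1 the median was 0.088, above both genes. After loess between arrays, which removes differences tied to brightness, the values were 0.30 for Cd74 (limma adjusted p = 0.0102), 0.20 for Rfx5 (0.0730), 0.13 for H2-Oa (0.148) and 0.13 for Ciita (0.160).

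**Figure D3:**
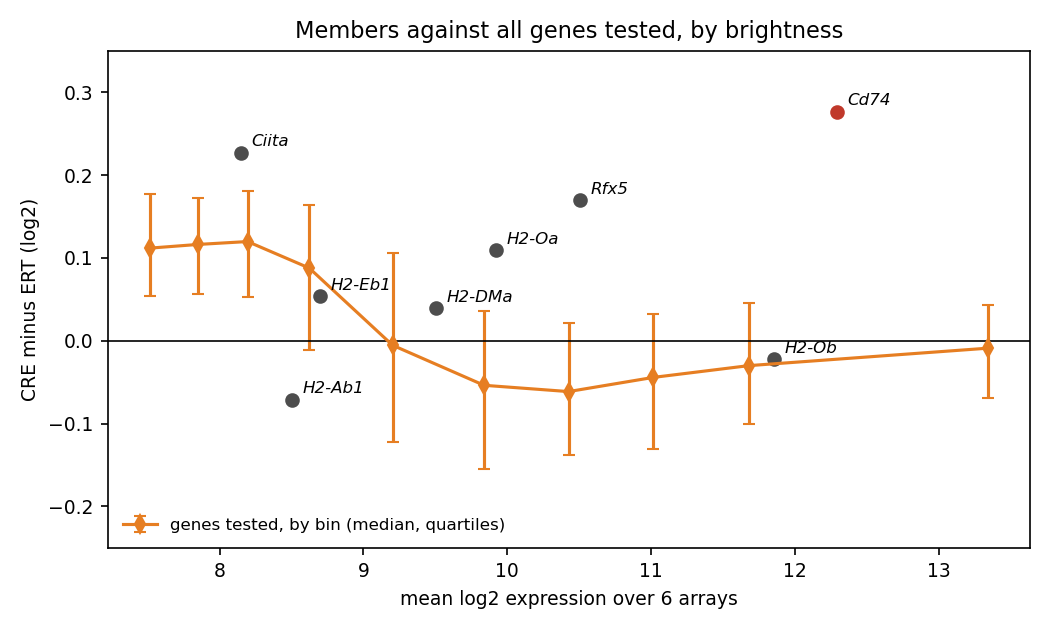
Difference between the groups (vertical axis, log2) against mean log2 expression over 6 arrays (horizontal axis). Diamonds and bars are medians and quartiles of all genes tested in 10 bins of brightness, placed at the middle of each bin, and dots are the 8 class II presentation genes; dim genes lie above 0, with a median of 0.12 in bin 3, where Ciita lies at 0.23, and bright genes near 0, where Cd74 lies at 0.28.

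Genes with the array profile most like that of Cd74 were ranked by the root mean square difference of their deviations from their own mean over the 6 arrays. Among the 5 nearest were Plcb2 (0.017 log2 units), a phospholipase C gene, Selenop (0.023), the selenoprotein P gene, Ppp1r16b (0.028), a phosphatase regulator gene, and Trpc4 (0.028), a cation channel gene. These 4 genes rose, by 0.27 to 0.30. The 5 nearest to Ciita were Crabp1 (0.015), Hhipl2 (0.022), Prss48 (0.022), Aplnr (0.024) and Zfp641 (0.025), none of which passed; Crabp1 had 8.34, 8.27 and 8.36 in the ERT arrays and 8.64, 8.60 and 8.39 in the CRE-labelled arrays. No other class II gene was among either 5. Both rankings used the same 6 arrays, with the group difference in them. They therefore pick genes that differ between the groups much as Cd74 or Ciita does. The differences of the picked genes are no separate result.

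Around these 9 genes, 61 further names of the pathway and of class I presentation were listed, of which 51 were on the array and 46 were tested. Of the 46, 2 were higher (Nlrc5 and Bach2), 2 were lower (Nfyb and Lgmn) and 42 did not pass, in all 4 of 46 beside the 7.62% of all genes tested.

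Nlrc5, which encodes the co-activator of class I genes and is a relative of CIITA, rose. Its log2 values were 11.58, 11.54 and 11.71 in the ERT arrays and 11.95, 11.98 and 11.81 in the CRE-labelled arrays, without overlap and with CRE 3 nearest to the controls. The difference was 0.30 ± 0.065 (SE, limma adjusted p = 0.0349). The other 13 class I presentation genes tested did not pass, and the median over the list of 14 was -0.010. Among them, the light chain gene B2m had a difference of -0.0087, and the peptide transporter genes Tap1 and Tap2 had 0.12 and -0.019. The immunoproteasome genes Psmb8, Psmb9 and Psmb10 had -0.012, -0.097 and 0.11. At an unadjusted p under 0.05 limma gave 2 of the 14 higher and 0 lower, against 19% and 14.4% of all genes tested. CRE lay wholly above ERT for 3 of the 14 and wholly below for 0, against 20.7% and 17.7%.

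Of the 6 genes of the complex on which CIITA docks, 0 were higher, 1 was lower and 5 did not pass, where 4.13% of all genes tested were called lower. At an unadjusted p under 0.05 limma gave 0 higher and 1 lower, where 19% of all genes tested were higher and 14.4% lower. Nfyb, which encodes a histone-fold subunit of NF-Y, fell. Its log2 values were 10.44, 10.36 and 10.34 in the ERT arrays and 10.19, 9.93 and 10.14 in the CRE-labelled arrays. The groups were apart, and the CRE-labelled array 2 was the lowest. The difference was -0.29 ± 0.071 (SE, limma adjusted p = 0.0466). The other NF-Y genes Nfya (0.086) and Nfyc (-0.042), the RFX genes Rfxap (-0.060) and Rfxank (0.089), and Creb1 (-0.054) did not pass.

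Of 8 genes tested that process antigen and the invariant chain, 0 were higher, 1 was lower and 7 did not pass, with a median of -0.096. Of all genes tested, 4.13% were called lower. At an unadjusted p under 0.05 limma gave 4 lower and 0 higher, where 14.4% of all genes tested were lower and 19% higher. The 4 were Lgmn, Ctss, Ctsd and Ifi30, in brightness bins 6, 7, 8 and 9. All genes tested in these bins had median differences of -0.054, -0.061, -0.044 and -0.030. After loess between arrays, limma gave 3 lower and 10 higher among all 46 further genes at an unadjusted p under 0.05. Lgmn, which encodes the asparagine endopeptidase legumain, fell by 0.26 ± 0.065 (SE) on the log2 scale, from 10.19, 10.30 and 10.16 in the ERT arrays to 9.99, 9.83 and 10.03 in the CRE-labelled arrays (limma adjusted p = 0.0488). The groups did not overlap. Ctss, the cathepsin that trims the invariant chain in B cells, had a difference of -0.18 (adjusted p = 0.118), with no overlap, and the thiol reductase gene Ifi30 had -0.14 (adjusted p = 0.130). Ctsh was below the filter.

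Of 12 genes tested that regulate Ciita or lie in the interferon-gamma pathway to it, 1 was higher, 0 were lower and 11 did not pass. At an unadjusted p under 0.05 limma gave 2 higher and 0 lower. Of all genes tested, 3.5% were called higher and 4.13% lower, and 19% and 14.4% at the unadjusted p. Bach2, which encodes a repressor that keeps B cells from plasma cell fate, rose from 11.92, 11.96 and 12.04 in the ERT arrays to 12.31, 12.26 and 12.16 in the CRE-labelled arrays. The groups were apart, and the difference was 0.27 ± 0.055 (SE, limma adjusted p = 0.0321). Irf8, a myeloid and B cell factor, had 0.14 (adjusted p = 0.0970) and Irf4 0.12 (0.162), Spi1, encoding PU.1, had -0.055 (0.490), and Irf1 had 0.081 (0.306). Prdm1, which encodes BLIMP1, a repressor of Ciita in plasma cells, had a mean over the 6 arrays below the filter, with 7.37 in the CRE-labelled arrays and 7.30 in the ERT arrays.

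Of 5 tested genes of class II turnover and surface partners, 0 were higher, 0 lower and 5 did not pass, where 7.62% of all genes tested passed. At an unadjusted p under 0.05 limma gave 1 higher and 0 lower, where 19% of all genes tested were higher and 14.4% lower. The ubiquitin ligase genes Marchf1, which removes class II from the surface, and Marchf8 had differences of 0.080 and 0.034, and the tetraspanin genes Cd81 and Cd82 had 0.064 and 0.14. Cd83 and Cd63 were below the filter. H2-Eb2, a further class II beta chain gene, had a difference of -0.11 (adjusted p = 0.120).

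The 4 calls in these lists were near the threshold. Nlrc5 passed in 9 of 15 alternative settings, Nfyb and Lgmn in 8 each and Bach2 in 7, all with the same sign in each of the 15. Another filter, the trend and robust settings and the block leave a difference unchanged, so the sign could not change in them. Each lost its call without ERT array 1 or 2 and without CRE-labelled array 1 or 2. Without ERT array 1, where the adjusted p was highest for each, the differences were 0.29 for Nlrc5 (adjusted p = 0.149), -0.26 for Nfyb (0.175), -0.27 for Lgmn (0.157) and 0.24 for Bach2 (0.144). Nfyb, Lgmn and Bach2 also lost theirs without ERT array 3 (adjusted p = 0.0765, 0.0711 and 0.0546), and Bach2 with centred arrays, at 0.16.

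**Figure D4:**
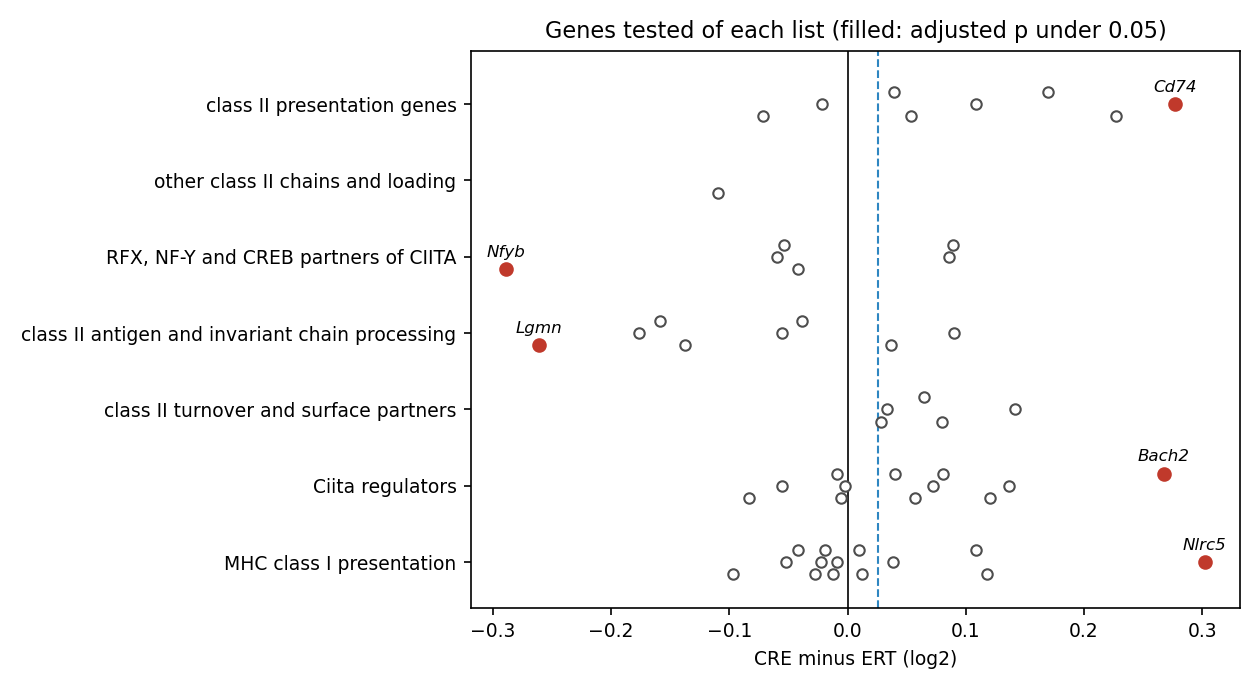
Difference between the CRE-labelled arrays and the ERT arrays (horizontal axis, log2) for the tested genes of each list (rows); filled points passed at an adjusted p under 0.05, and the dashed line is the median of all genes tested, 0.026. Cd74, Bach2 and Nlrc5 stand at the right between 0.27 and 0.30, and Nfyb and Lgmn at the left, with every other point between them.

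Markers of other cells that carry class II were examined beside the rise of Cd74. Of 18 listed markers of dendritic cells and macrophages, 17 were on the array, and 8 passed the filter. Limma called 2 of the 8 higher and 0 lower, against 3.5% and 4.13% of all genes tested. The lysozyme gene Lyz2 rose by 0.79 ± 0.099 (SE, limma adjusted p = 0.00588), and it passed in all 15 alternative settings. Cd209a also passed (0.24 ± 0.048, 0.0308), but its ERT mean of 7.25 lay under the filter and its CRE mean of 7.48 over it, so it was tested only through the group where it is high, and it passed in 4 of 14 alternatives. The mean log2 value over the 17 markers was 7.25 to 7.33 in the ERT arrays and 7.36 to 7.44 in the CRE-labelled arrays. The dendritic cell genes Itgax (0.081), Zbtb46 (0.080), Batf3 (0.11) and Siglech (0.15) did not pass. Nor did the high-affinity Fc receptor gene Fcgr1 (-0.26, adjusted p = 0.0563) and Ly86 (-0.053). The other 9 were below the filter and not tested. Their differences were 0.11 for Xcr1, -0.14 for Clec9a, 0.17 for Csf1r, 0.031 for Adgre1 and 0.13 for Cd14. Mertk had 0.085, Itgam 0.075, Mpeg1 0.27 and Clec10a 0.13. Of these dim genes, Csf1r and Mpeg1 had CRE wholly above ERT. Log values on an array have no 0, so no marker can be said to be absent. The mean over 9 T and NK cell markers did not overlap between the groups either, from 7.20 to 7.29 in the ERT arrays and from 7.33 to 7.44 in the CRE-labelled arrays. Cd5 was the 1 of 5 tested that passed, beside 7.62% of all genes tested. At an unadjusted p under 0.05 limma gave 4 of the 5 higher and 0 lower, against 19% and 14.4%. CRE lay wholly above ERT for 3 of the 5, against 20.7%. Over all genes tested in the 2 dimmest bins, the median difference was 0.11 and 0.12. The part of other cells in the rise of Cd74 was not tested.

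**Figure D5:**
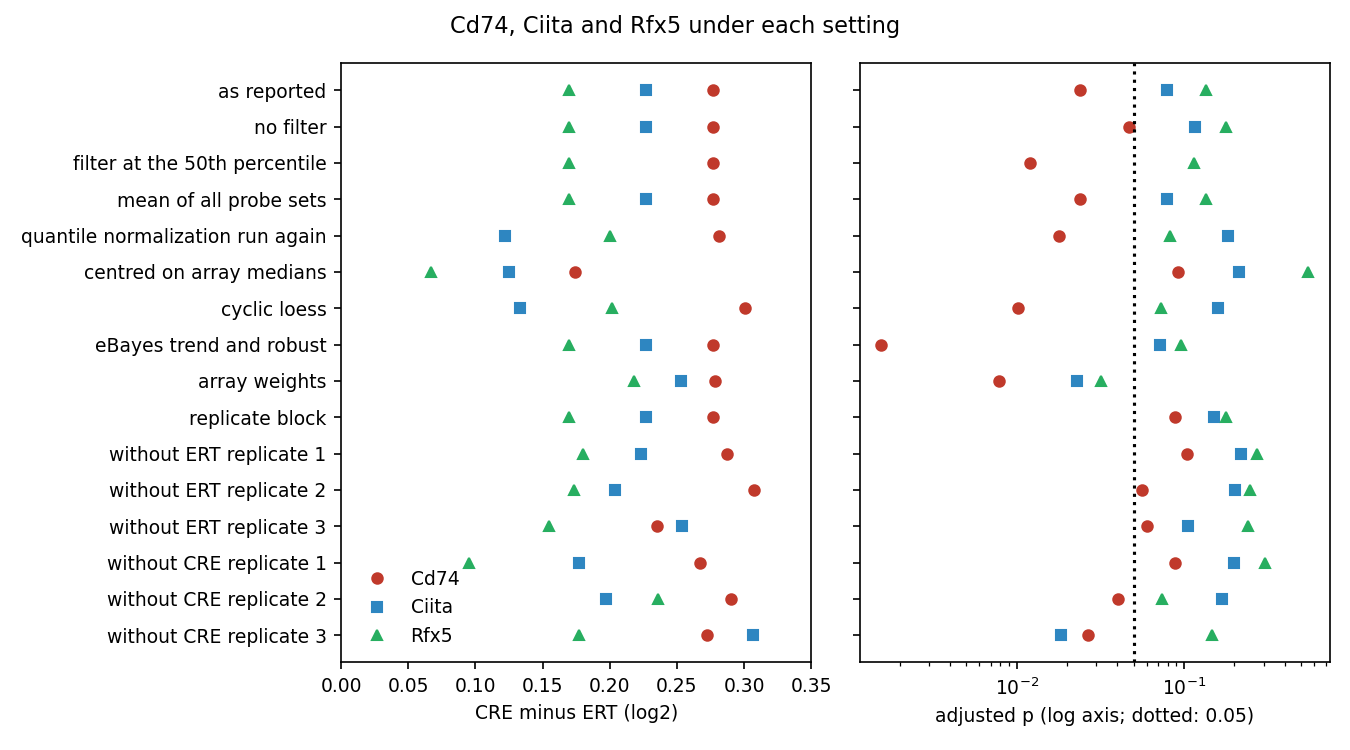
Difference between the groups (left, log2) and limma adjusted p (right, log axis, dotted line at 0.05) for Cd74, Ciita and Rfx5 as reported and under each of the 15 alternative settings (rows); Ciita has no value with the filter at the 50th percentile. All differences are above 0, from 0.067 to 0.31, and Cd74 lies left of the line in 9 alternatives, Ciita in 2 and Rfx5 in 1.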

How the data were processed

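The authors deposited log2 values of 35556 probe sets per array. The submitters' processing notes list RMA and Partek 6.5 without role or settings, and a genome build is not given in sources used here. Of the probe sets, 21789 carried 1 symbol in the array's annotation table; those with several were not used. The probe set with the highest mean stood for a gene, and 4985 genes with a mean under the 25th percentile (7.35) were left out. The comparison used lmFit and eBayes of limma 3.58.1, run in R 4.3.3 (two-sided, Benjamini-Hochberg over 14953 genes, threshold 0.05). Arrays give no read depth, and their number, 3 a group, limits the precision. Deviations from the group means correlated at 0.069, -0.17 and -0.40 between arrays of the same replicate number. Arrays of unlike numbers were not compared in this way, so these values cannot decide whether replicate numbers pair the arrays. The named genes were the 9 members, Inpp5d, listed genes that passed or were dim, and the 5 genes most like Cd74 (1 of them is not reported here) and most like Ciita; other listed genes were named after their values were seen. Members and lists were chosen with earlier results of these data known. Alternatives were the replicate number as a block, leaving out each array, no filter or one at the 50th percentile, averaged probe sets, quantile normalization, median centring, cyclic loess, array weights, eBayes with trend and robust settings, and a threshold of 0.01. The 10 bins of brightness were added after seeing the data. Promoters came from RefSeq. Tables and figures used Python 3.11.15, pandas 2.3.3 and matplotlib 3.10.9.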

Additional observations from a re-analysis of the deposited data

How the results depend on the processing

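Of all genes, limma called 437 with no filter (2.19%), 3020 with centred arrays (20.2%) and 2147 with trend and robust estimation (14.4%). It called 3993 with array weights (26.7%) and 143 of 14953 at a threshold of 0.01. With 1 array left out it called 116 to 3042 (0.776% to 20.3%). Of the 8 class II genes tested, limma called 0 with centred arrays (2 at an unadjusted p under 0.05), 3 with array weights, 0 at the threshold of 0.01 (3 unadjusted), and 0 to 2 with 1 array left out. Of the other pathway genes, it called 0 with no filter (9 unadjusted), 7 with centred arrays and 0 to 5 with 1 array left out. Over all genes, limma gave an unadjusted p under 0.05 for 5123 of 14953 with centred arrays and 5517 of 19938 with no filter. It did so for 3960 of 14953 with the replicate number as a block. With this block, the counts called were 147 of all genes (0.983%), 0 class II genes (3 unadjusted) and 0 other pathway genes (6 unadjusted). The arrays' deviations cannot decide whether this block is a pairing. Cd74 had 0.28 (limma adjusted p = 0.0889). Each replicate number occurs once in each group, so the block leaves every difference as it was and no sign could change.

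Cd74 had 0.17 with centred arrays and 0.24 to 0.31 with 1 array left out. Ciita had 0.25 and Rfx5 0.22 with array weights, and 0.18 to 0.31 and 0.095 to 0.24 with 1 array left out. H2-Eb1 reversed to -0.017 after quantile normalization, -0.048 after centring and -0.0025 after loess, H2-DMa to -0.063 after centring, and H2-Ob to 0.0067 after loess. With 1 array left out, H2-Ab1 ranged from -0.13 to 0.0034, H2-Eb1 from -0.0030 to 0.10, H2-DMa from -0.047 to 0.10 and H2-Ob from -0.038 to 0.0027. The cause was not tested. A fit with 1 array fewer has fewer residual degrees of freedom. The signs of Cd74, Ciita, Rfx5 and H2-Oa were the same in every alternative in which they were tested. Another filter, averaged probe sets, the trend and robust settings and the block could not have changed these signs.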
